A study of Mus musculus with 12 samples.

Results

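Oligodendrocyte precursors were followed through 8 genes, Pdgfra, Cspg4, Gpr17, Olig1, Olig2, Sox10, C1ql1 and Nkx2-2, chosen by symbol as receptors and lineage factors of these cells. All 8 were found among the 54547 genes of the deposited tables, and all 8 were among the 29835 genes with enough signal to test. The libraries, 3 in each of 4 groups, hold RNA of sorted brain cells from mice on a mixed 129;C57BL/6 background. GFP+ cells and CD11b+ phagocytes (CD11b is an integrin of microglia and macrophages) came from tumors of Msi1-CreER;RasV12 mice and from the cerebellum of Msi1-CreER;GFP mice. All 4 groups thus carried Msi1-CreER, an inducible Cre recombinase named for the stem cell gene Musashi-1, and the tumor groups carried RasV12, an active form of Ras. The sources used here give neither ages, nor the timing of Cre induction, nor how the tumor cells came to carry GFP. Tumor against cerebellum and RasV12 against its control are the same contrast, and the parts of tissue and genotype cannot be told apart. The labels do not say that libraries came from separate animals, so each p-value below measures the spread between libraries, which may be partly technical.

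Oligodendrocyte precursors are the dividing cells that renew the myelin-forming oligodendrocytes of the brain, and they are often discussed as a cell from which gliomas can start. They respond to platelet-derived growth factor through the receptor Pdgfra and carry the proteoglycan NG2, the product of Cspg4. The transcription factors Olig1, Olig2, Sox10 and Nkx2-2 set the lineage, and Gpr17 is switched on for a short time as a precursor commits to differentiate. Sox10 and the Olig genes stay on in mature oligodendrocytes, so only some of the 8 genes separate a precursor from its progeny.

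Values are the authors' normalized counts, and the main test was limma on log2(normalized count + 1) with Benjamini-Hochberg adjustment over all genes tested and a threshold of 0.05. For each gene this test estimated the spread once over all 12 libraries, phagocytes included. Its SEs, intervals and adjusted p-values for GFP+ cells thus rest partly on the CD11b+ libraries, and the reverse. Library totals recovered from the tables ran from 18519240 to 34432725 reads in GFP+ libraries and from 7883870 to 34601205 in control CD11b+ libraries. RasV12 CD11b+ libraries 1 and 2 were shallow, at 3642570 and 2951629 reads, while the third held 23589310. One read was worth 0.358 to 5.54 normalized counts. A background level was taken for each library from 1494 olfactory, vomeronasal and taste receptor genes, which brain cells are not known for expressing. It was 0.859 to 3.41 normalized counts per kb of exon in GFP+ libraries, 4.65, 37.8 and 4.76 in control CD11b+ and 79.1, 90.2 and 59.3 in RasV12 CD11b+ libraries 1 to 3. This level is a length-weighted mean over a skewed set. The median receptor gene stood lower, at 0.744, 10.1 and 1.43 in control CD11b+ and 20.3, 13.4 and 9.29 in RasV12 CD11b+ libraries. As a check of the sort, Itgam, which encodes CD11b, stood between 1350.2 and 5256.1 in CD11b+ libraries and at most at 0.5 in GFP+ libraries. The 10 microglia and macrophage markers, Itgam included, summed to 163034.5 to 615120 in control and 59020.1 to 80765.1 in RasV12 CD11b+ libraries. In GFP+ libraries these markers summed to 378.4 to 1916.8 in controls and 2069.7 to 2522.9 in tumors. The level of GFP was not analysed here.

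In tumor GFP+ cells 2 of the 8 genes fell and the other 6 did not pass the test. Sox10 had no read in any of the 3 RasV12 libraries and Gpr17 had 1 read in all, whereas Olig1, Olig2, C1ql1, Pdgfra, Cspg4 and Nkx2-2 were read in each of them. Of all genes tested, 2.65% were called lower and 4.14% higher in this comparison, and no member was called higher. Counting members whose 3 tumor values lay wholly below the 3 control values gave 3 (Sox10, Gpr17 and Olig1) against 10.9% of all genes, and none lay wholly above, against 17.2%. The median log2 fold change of the 8 was -1.05, and that of all genes tested was 0.56. These are bulk samples of sorted cells, in which fewer cells of a type and less RNA per cell cannot be told apart.

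**Figure D1:**
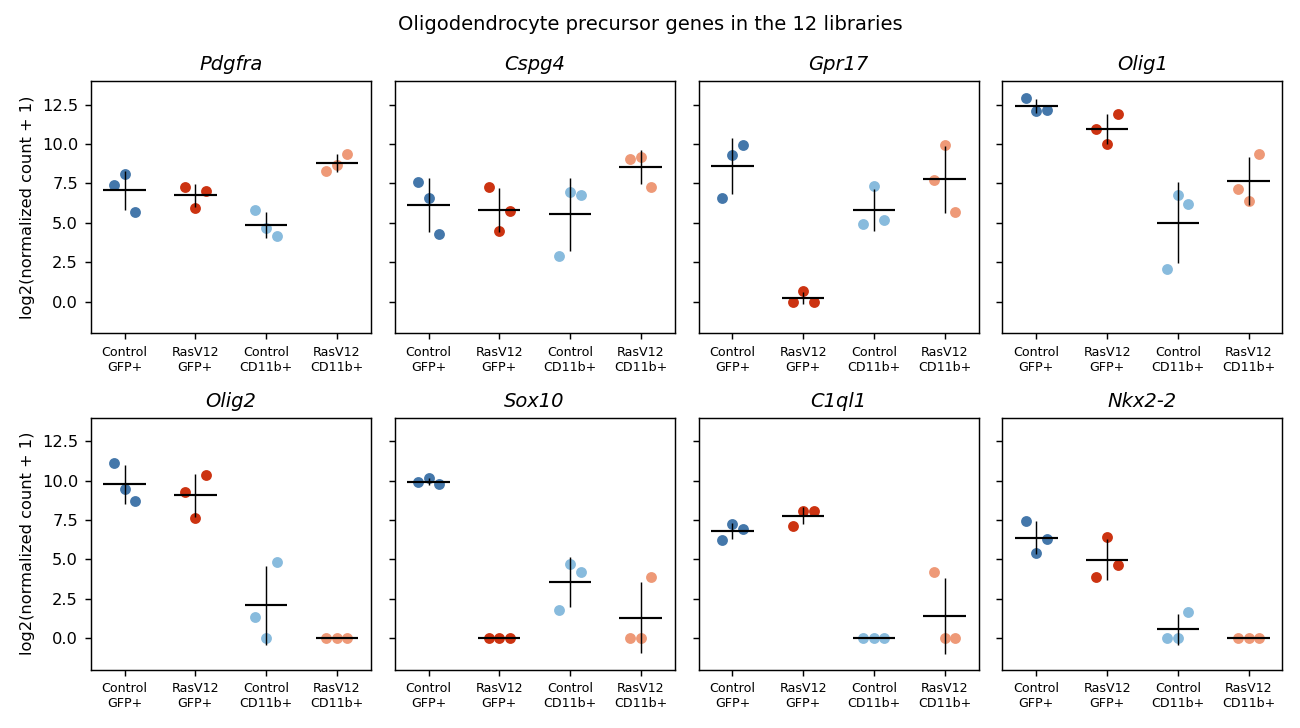
Level of each gene, as log2(normalized count + 1), in the 12 libraries; points are libraries, horizontal bars group means and vertical bars 1 SD of 3 libraries. Sox10 and Gpr17 sit at or next to 0 in the RasV12 GFP+ libraries, in which Olig1 and Olig2 lie between 198.3 and 3862.9 normalized counts.

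Sox10 encodes a SoxE-family factor that the lineage carries from precursor to myelinating cell and needs for its myelin genes, and lies on chromosome 15 at 79154908 to 79165240 on the minus strand of GRCm38. In control GFP+ libraries it stood at 977, 1139.6 and 868.8 normalized counts, a narrow range (995.1 ± 136.3, SD, n = 3). In RasV12 GFP+ libraries it stood at 0, 0 and 0. The groups were fully apart: 3920 reads in the controls faced none in libraries of 21227344 to 34432725 reads, so the level was at least 2255-fold lower, taking 3 reads for the whole tumor group as the floor, which covers counting error only. The fitted log2 fold change was -9.95 ± 1.30 (SE, limma, adjusted p = 0.000685). On the FPKM scale, which corrects for length, Sox10 went from 19.6 ± 2.67 (SD, n = 3) to a listed 0.

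The other SoxE genes, Sox8 and Sox9, were picked for comparison after their values had been seen. Sox8, which overlaps with Sox10 in oligodendrocyte development, stood at 659.2, 1265.5 and 1029.5 in control and at 678.8, 957.3 and 1062.2 in RasV12 GFP+ libraries. Sox9, the SoxE gene of stem cells and astrocytes, stood at 3157.2, 719.4 and 2167.9 and at 4333.1, 1833.8 and 2353.3. Both overlapped between the groups and neither passed the test, with log2 fold changes of -0.11 ± 1.13 (adjusted p = 1) for Sox8 and 0.64 ± 1.48 (adjusted p = 0.899) for Sox9. Within single libraries, log2 Sox10 minus log2 Sox8 differed by -9.85 between RasV12 and control GFP+ cells, and all 3 tumor libraries were below all 3 controls. With Sox10 at 0 in the tumor libraries, the tumor side of this difference is set by Sox8 and the pseudocount alone. The exact two-sided permutation p was 0.1 (0.133 adjusted over the 8 ratios computed), the smallest that 3 against 3 libraries allow. Sox10 also marks Schwann cells of peripheral nerve. The 5 Schwann markers summed to 3294.1 to 4349.2 in control and 1827.6 to 4229.3 in RasV12 GFP+ libraries, nearly all of it Pmp22 (3293.1 to 4264.3 and 1760.3 to 4133.6), while 2 of the 5, Egr2 among them, were at 0 in all 6 GFP+ libraries; their part in the Sox10 result was not tested.

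Gpr17 encodes a G protein-coupled receptor that marks precursors at the point of differentiation (chromosome 18, 31942997 to 31949636, minus strand). Control GFP+ libraries varied widely, with 93.8, 619.9 and 993.9 normalized counts. RasV12 GFP+ libraries held 0, 0.6 and 0, far below the lowest control. The 1908 control reads against a single tumor read gave a ratio of 3293 (95% interval 590.4 to 130142, exact binomial, counting error only). Gpr17 fell by 8.38 ± 1.29 on the log2 scale (SE, limma, adjusted p = 0.00196). Without control GFP+ library 1, where it was lowest, the log2 change was -9.39 (adjusted p = 0.00203), and without library 3 it was -7.70 (adjusted p = 0.00949). With library background subtracted first, the change was -8.57 ± 2.28 and no longer passed (adjusted p = 0.0818). The change was thus no smaller, and the SE was larger. Both fits estimated the spread over all 12 libraries, and the cause of the larger SE was not tested. Background for Gpr17 was 4.46 to 10.4 normalized counts in control and 9.61 to 17.7 in RasV12 GFP+ libraries. Lims2, an adapter gene of cell adhesions, overlaps Gpr17 on the other strand, and the libraries do not mark strand, so reads of the shared stretch cannot be assigned. Its own counts were 906.3, 2561.5 and 1298.1 in control and 72.7, 120.4 and 48.3 in RasV12 GFP+ libraries.

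Markers of mature oligodendrocytes moved with these calls. The summed level of 10 such genes was 974235 to 1614564 normalized counts in control GFP+ libraries and 2889.7 to 17728.5 in RasV12 GFP+ libraries, and 9 of the 10 fell by the test. Their part in the Sox10 and Gpr17 results was not tested.

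Olig1 and Olig2 encode paired basic helix-loop-helix factors and are neighbors on the plus strand of chromosome 16, at 91269772 to 91271933 and 91225457 to 91228677, with 41.1 kb between them. Nkx2-2 encodes a homeodomain factor that promotes the step to differentiation (chromosome 2, 147177546 to 147194243, minus strand). Promoter sequence from RefSeq (GRCm38.p6) was at hand for 4 of the 8 genes, all with reads in each tumor GFP+ library that lacked Sox10, and is shown for those 4. Each run is 5′ to 3′ on the gene's strand, taken from the 250 bases before the RefSeq start and stopped before the first exon base that GENCODE annotates upstream. Capitals mark CANNTG, the E-box to which basic helix-loop-helix factors bind; a search on both strands also covered ACAAAG and ACAATG, letters that Sox factors recognize, and TATAAA.
Olig2 chr16:91225300-91225456 (plus strand): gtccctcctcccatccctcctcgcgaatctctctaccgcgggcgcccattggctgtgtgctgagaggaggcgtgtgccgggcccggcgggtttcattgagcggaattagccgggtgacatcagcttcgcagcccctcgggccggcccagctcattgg
Nkx2-2 chr2:147186456-147186652 (minus strand): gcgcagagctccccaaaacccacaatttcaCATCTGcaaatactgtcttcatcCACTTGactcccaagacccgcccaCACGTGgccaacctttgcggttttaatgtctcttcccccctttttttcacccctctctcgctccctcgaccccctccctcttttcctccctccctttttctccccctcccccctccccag
Cspg4 chr9:56864854-56865032 (plus strand): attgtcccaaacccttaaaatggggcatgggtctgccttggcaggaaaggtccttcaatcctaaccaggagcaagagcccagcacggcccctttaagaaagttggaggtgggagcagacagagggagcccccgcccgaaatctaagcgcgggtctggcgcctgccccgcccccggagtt
Pdgfra chr5:75152001-75152250 (plus strand): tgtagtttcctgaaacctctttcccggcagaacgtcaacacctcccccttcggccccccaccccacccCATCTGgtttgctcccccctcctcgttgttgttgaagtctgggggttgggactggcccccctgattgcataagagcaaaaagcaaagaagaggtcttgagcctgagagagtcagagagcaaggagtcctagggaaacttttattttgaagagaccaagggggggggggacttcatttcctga

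The E-box letters occurred 3 times in the 197 bases of Nkx2-2, 1 time in the 250 bases of Pdgfra and not in the 157 bases of Olig2 or the 179 bases of Cspg4. Among 32851 RefSeq promoter windows cut to the same lengths, 58.6%, 66.2%, 50.8% and 55.3% held at least 1. The Sox letters were in none of the 4, and 20.9%, 25.2%, 16.9% and 19.1% of windows of these lengths held them. TATAAA was in none of the 4 either, against 9.05%, 12.4%, 7.55% and 8.34% of windows. The Nkx2-2 stretch lies inside the span that GENCODE gives the gene, since annotated transcripts begin further upstream.

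Olig1 was the highest of the 8 genes per length in both GFP+ groups, at 154.9 ± 49.7 FPKM in control and 63.2 ± 40.2 FPKM in RasV12 cells (SD, n = 3). Its normalized counts were 7643.6, 4426.1 and 4679.7 in control and 1949.1, 1022.1 and 3862.9 in RasV12 GFP+ libraries. Every tumor library was below every control, yet the log2 fold change of -1.45 ± 1.10 did not pass (limma, adjusted p = 0.563, 95% interval -3.83 to 0.92). Of the tested genes, 97.9% had a lower FPKM mean than Olig1 in RasV12 GFP+ cells.

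Olig2 stood at 2240.2, 721 and 416.1 in control GFP+ libraries and at 609.7, 198.3 and 1303.3 in RasV12 ones. The groups overlapped, each spreading more than 5-fold from its lowest to its highest library. The log2 fold change was -0.70 ± 1.32 (limma, adjusted p = 0.864), with an interval from -3.53 to 2.14 that allows a large change in either direction. Within libraries, Olig2 relative to Olig1 differed by 0.76 on the log2 scale between the groups (exact permutation p = 0.2, adjusted 0.229). The ratio of Sox10 to Olig2 differed by -9.26 on that scale in the tumor libraries (exact permutation p = 0.1, adjusted 0.133). With no Sox10 read there, the tumor side of this ratio is set by Olig2 and the pseudocount alone.

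Nkx2-2 was low, at 175.2, 41.7 and 78.3 in control and 14, 84.3 and 24.3 in RasV12 GFP+ libraries. The second tumor library lay inside the control range and the others below it. Its log2 fold change of -1.40 ± 1.14 did not pass (limma, adjusted p = 0.603, interval -3.86 to 1.06). The antisense genes 6430503K07Rik and Nkx2-2os share bases with Nkx2-2 on the other strand, so that reads of the overlap cannot be assigned. The former stood at 107.5 to 121.1 in control and 9.5 to 12.6 in RasV12 GFP+ libraries, without overlap, and Nkx2-2os at 79.6, 0 and 177 and at 0, 39.6 and 15.7, with overlap.

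C1ql1 encodes a secreted relative of complement C1q that precursors make, and that inferior olive neurons send to Purkinje cells (chromosome 11, 102939264 to 102946688, minus strand). Its counts were 74.8, 154 and 121.1 in control and 141.3, 264.8 and 274.3 in RasV12 GFP+ libraries. Of the 8 it alone had a higher mean in the tumor cells, 226.8 ± 74.2 against 116.6 ± 39.8 (SD, n = 3), but the lowest tumor library was inside the control range and the log2 fold change of 0.95 ± 1.25 did not pass (adjusted p = 0.785). Relative to Olig1 in the same library it was 2.41 higher on the log2 scale in tumor cells, with no overlap (exact permutation p = 0.1, adjusted 0.133). Summed markers of neurons were 75534 to 92978 in control and 1893.3 to 3066.8 in RasV12 GFP+ libraries; their part in the C1ql1 values was not tested.

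Pdgfra, the PDGF receptor by which precursors are usually sorted, lies on chromosome 5 at 75152292 to 75198215 (plus strand). It stood at 169.3, 271.9 and 49.8 in control and at 151.3, 59.6 and 129.5 in RasV12 GFP+ libraries. All 3 tumor values fell inside the control range. The log2 fold change was -0.32 ± 0.90 (adjusted p = 0.928, interval -2.27 to 1.62). Per length the gene was low in both groups, at 0.967 ± 0.651 and 0.700 ± 0.265 FPKM (SD, n = 3), and its tumor values were 2.46 to 6.98 times the library background for a gene of its exon length.

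Cspg4, which encodes NG2, lies on chromosome 9 at 56865033 to 56899870 (plus strand) and was lower still, at 0.533 ± 0.451 and 0.40 ± 0.361 FPKM. Its counts were 195.4, 94.6 and 18.3 in control and 154, 21.2 and 52.6 in RasV12 GFP+ libraries, with full overlap. It reached 0.735 to 3.78 times the background level in the tumor libraries, above it in 2 of 3, and 0.766 to 19.1 times in the controls, also above it in 2 of 3. The log2 fold change of -0.32 ± 1.30 did not pass (adjusted p = 0.968, interval -3.12 to 2.47). Pericytes also carry NG2 and fibroblasts of the meninges Pdgfra. The 8 pericyte markers summed to 3821.7 to 10699.4 in control and 3027 to 6328.5 in RasV12 GFP+ libraries. Most of the tumor sums was Rgs5, at 2753.8, 6174.4 and 3355.4. By the test 4 of the 8 were lower in tumor cells and 1 was higher, beside 2.65% and 4.14% of all genes. The 8 fibroblast markers summed to 3010.5 to 3555.6 and 926.6 to 1031.8, with 1 called lower and none higher. Lum was at 0 in the tumor libraries and at 0, 339.2 and 119 in the controls. The part of both marker sets in the Pdgfra and Cspg4 values was not tested.

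**Figure D2:**
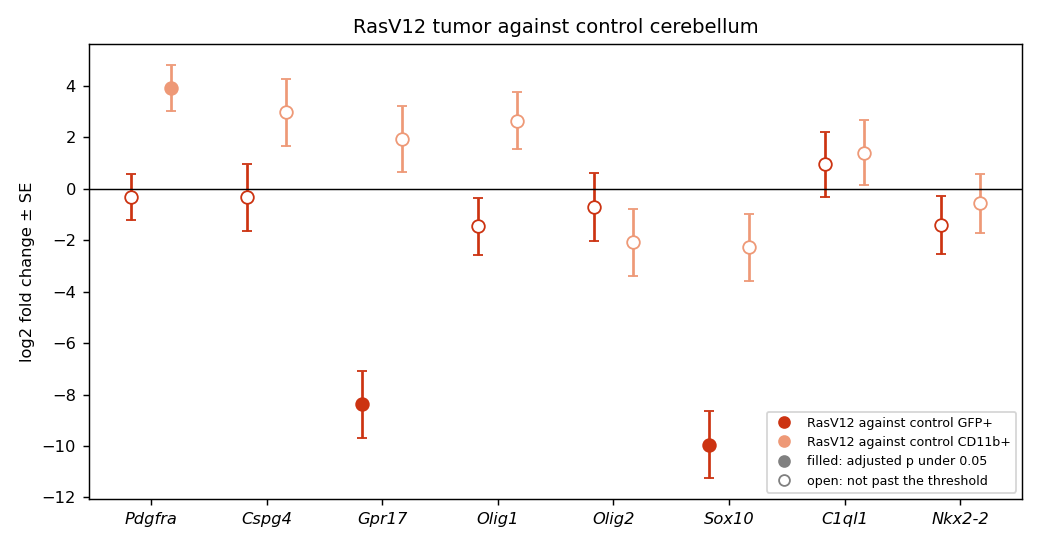
Fitted log2 fold change of each gene (RasV12 tumor against control cerebellum) with its SE, in GFP+ cells and in CD11b+ cells; filled points passed the adjusted p threshold of 0.05. In GFP+ cells Sox10 (-9.95) and Gpr17 (-8.38) stand apart from the other 6 genes, which lie between -1.45 and 0.95; in CD11b+ cells Pdgfra (3.93) is the filled point.

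By length-corrected level, control GFP+ cells ranked the genes as Olig1, Olig2, Sox10, Gpr17, C1ql1, Nkx2-2, Pdgfra and Cspg4, from 154.9 to 0.533 FPKM. Olig2 (27.7 ± 24.1 FPKM) and Sox10 (19.6 ± 2.67 FPKM) were within their spread of each other, as were Gpr17 (6.60 ± 5.23 FPKM) and C1ql1 (4.73 ± 1.66 FPKM), and Pdgfra and Cspg4. In RasV12 GFP+ cells the order was Olig1, Olig2 (17.3 ± 13.7 FPKM), C1ql1 (9.27 ± 3.01 FPKM), Nkx2-2 (0.867 ± 0.814 FPKM), Pdgfra and Cspg4, with Gpr17 and Sox10 listed at 0. Nkx2-2, Pdgfra and Cspg4 did not differ there beyond their spread.

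Other genes of the lineage were counted by stage in the GFP+ comparison. Of 17 mature myelin genes, 15 fell, 1 rose and 1 did not pass, beside 2.65% of all genes lower and 4.14% higher, with a median log2 fold change of -9.50 against 0.56 for all genes tested. Mog, a late myelin surface protein, lay between 15234.5 and 16958.6 in control and between 0 and 2.7 in tumor libraries. The gene that rose was Trf, which encodes the iron carrier transferrin (3485 ± 473.0 to 13160 ± 5200, SD, n = 3).

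Of 21 tested lineage factors and early differentiation genes, 6 fell and none rose (median -0.51), beside 2.65% and 4.14% of all genes. Myrf, the factor that drives myelin genes and is switched on by Sox10, stood at 2080.5, 1212.6 and 1113 in control and at 89.9, 10.9 and 16.8 in RasV12 GFP+ libraries (log2 fold change -5.72, limma, adjusted p = 0.00132). Enpp6, an enzyme of newly formed oligodendrocytes, fell by 5.71 (adjusted p = 0.00116), Bcas1, another marker of that stage, by 3.99 (adjusted p = 0.0155), and the factor gene St18 by 4.10 (adjusted p = 0.00223). No tumor library reached the lowest control library for Myrf, whose level there was 39.2 ± 44.0 (SD, n = 3).

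Of 22 other precursor genes, 3 rose, 1 fell and 18 did not pass (median 1.39), beside 4.14% of all genes higher and 2.65% lower. Vcan, a matrix proteoglycan of precursors, stood at 217.4, 8 and 135.3 in control and at 2950.3, 1993.7 and 2636.2 in RasV12 GFP+ libraries (log2 fold change 5.27 ± 0.93, adjusted p = 0.00437). The proteoglycan gene Cspg5 rose by 2.43 ± 0.63 on the log2 scale (adjusted p = 0.0334). The endothelin receptor gene Ednrb, with means of 7773 ± 3177 and 703.2 ± 300.2 (SD, n = 3), fell by 3.45 ± 0.62 on the log2 scale (adjusted p = 0.00457). The tumor libraries of Vcan, Cspg5 and Ednrb did not overlap the controls.

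**Figure D3:**
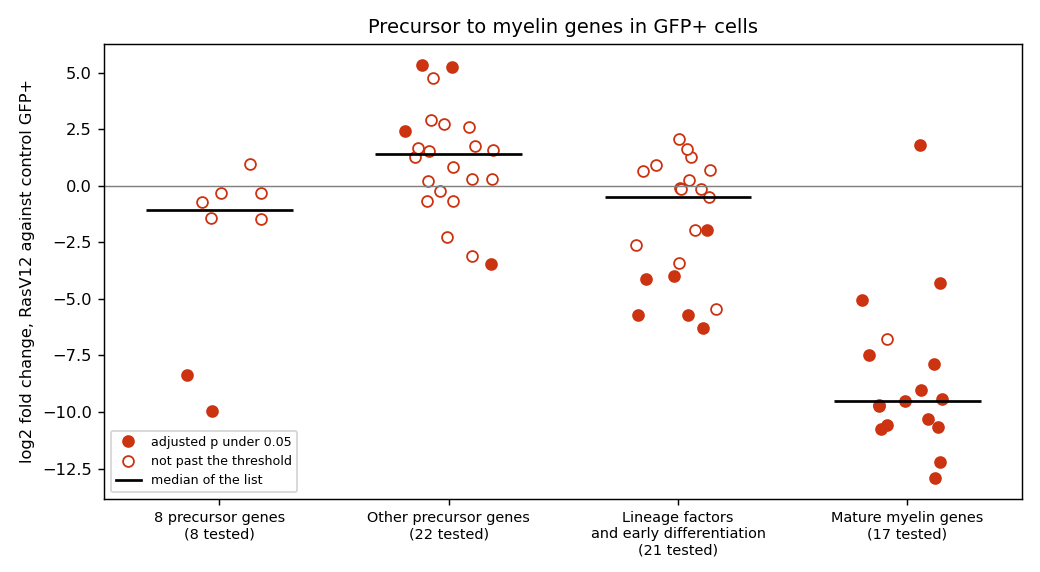
Log2 fold change between RasV12 and control GFP+ cells for the 8 genes and 3 further lists of the oligodendrocyte lineage; each point is a gene, filled where the adjusted p was under 0.05, and the bar is the list's median. The medians run from 1.39 for other precursor genes to -9.50 for mature myelin genes, and Sox10 and Gpr17 are the 2 filled points of the first column.

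The 5 genes for PDGF ligands and the other receptor gave 2 lower and no higher calls (median -1.33), beside the same 2.65% and 4.14%. Pdgfrb, the receptor of pericytes, stood at 600.4, 270.3 and 621.6 in control and at 0, 3.4 and 13.6 in RasV12 GFP+ libraries (log2 fold change -6.86 ± 1.53, adjusted p = 0.0155). The ligand gene Pdgfd fell by 3.99 ± 0.92 (adjusted p = 0.0186). Pdgfa, the ligand that classically drives precursor division, stood at 864.1, 535.7 and 514.8 in control and at 2919.6, 1368.3 and 1389.1 in tumor cells; the groups did not overlap, but the log2 fold change of 1.51 ± 1.45 did not pass (adjusted p = 0.686). The SE of Pdgfa also takes in its RasV12 CD11b+ values of 66.8, 0 and 246.8. Among 6 tested partners of C1q-related proteins and NG2, 1 rose: Itgb1, the beta-1 integrin chain, by 2.0 ± 0.44 (adjusted p = 0.0151).

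In phagocytes 1 of the 8 genes was called between RasV12 and control, against 2.97% of all genes called higher and 2.39% lower. Pdgfra stood at 54.1, 23.9 and 16.5 in control CD11b+ and at 307.5, 409.8 and 664.8 in RasV12 CD11b+ libraries, with no overlap, and rose by 3.93 ± 0.90 on the log2 scale (limma, adjusted p = 0.0272). In the same RasV12 libraries the background level for a gene of its exon length was 594.1 to 903.9 normalized counts, and Pdgfra reached 0.388 to 1.12 times that level, above it in 1 of 3. With this background subtracted the log2 change was 1.02 and did not pass (adjusted p = 0.783). The call was also lost without control CD11b+ library 1 (adjusted p = 0.0602) or 3 (0.114) and without RasV12 CD11b+ library 2 (0.0580) or 3 (0.0535).

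Cspg4 stood at 6.3, 124.2 and 108.1 in control and at 539.2, 587 and 154.9 in RasV12 CD11b+ libraries. Those groups were apart as well, so 2 of the 8 genes lay wholly higher, against 19.0% of all genes, and none wholly lower, against 8.59%. The log2 fold change of 2.99 ± 1.30 did not pass (adjusted p = 0.166), and all 3 tumor values were at 0.219 to 0.571 times background. Per kb, 39.5%, 37.1% and 47.5% of the receptor genes stood higher than Cspg4 in these tumor libraries. Gpr17 (29.8, 160.2 and 35.2 against 205, 980.3 and 49.8) and Olig1 (3.1, 107.8 and 71.6 against 142.6, 83.1 and 654) overlapped between the groups, with log2 fold changes of 1.95 ± 1.29 (adjusted p = 0.342) and 2.64 ± 1.10 (adjusted p = 0.153). In the tumor phagocytes Gpr17 exceeded background in 1 of 3 libraries, by 2.09 times, and Olig1 in 1 of 3, by 5.10 times.

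Olig2 stood at 1.6, 0 and 28.2 in control CD11b+ libraries and at 0 in all 3 tumor ones. Sox10 stood at 2.4, 25.4 and 17.8 and at 0, 0 and 13.8. C1ql1 had no read in control phagocytes and 4 reads in 1 tumor library, and Nkx2-2 had 5 reads in 1 control library and none in the tumor ones. None of these 4 passed the test, and none exceeded 0.153 times background in a RasV12 CD11b+ library. The median log2 fold change of the 8 genes was 1.68, or 1.70 with genes that lacked reads in a group at their bound, and that of all genes 0.74. The fibroblast markers summed to 262.7 to 1369.6 in control and 2878.5 to 4441.5 in RasV12 CD11b+ libraries and the pericyte markers to 256 to 3065.4 and 2745.1 to 3468.9; their part in the Pdgfra and Cspg4 values was not tested.

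**Figure D4:**
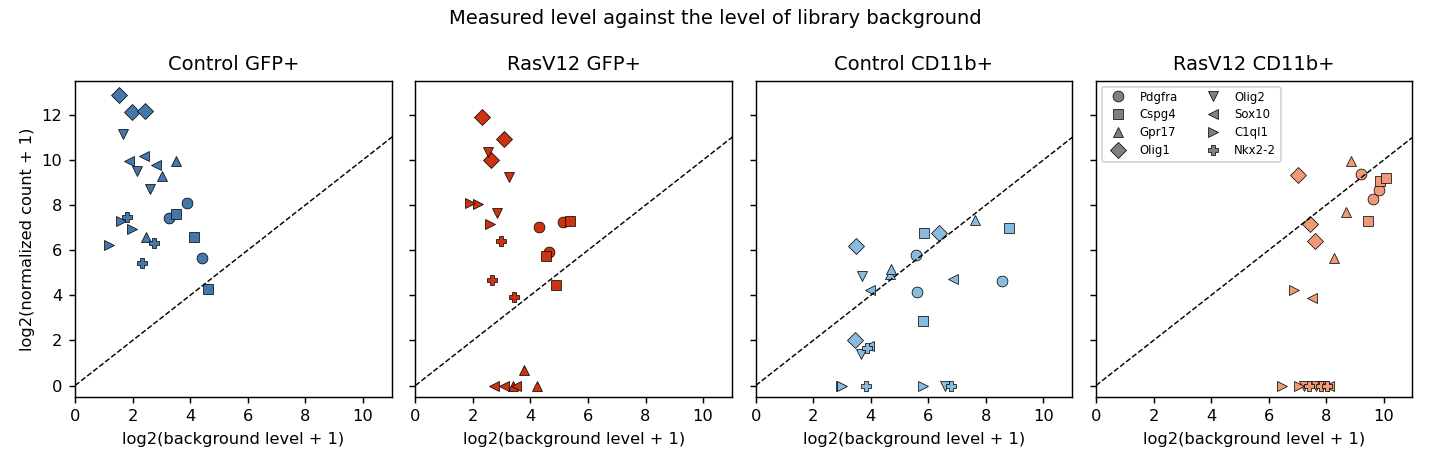
Level of each gene in each library, as log2(normalized count + 1), against the background level expected for its exon length on the same scale; points on the dashed line equal background. Olig1 and Olig2 lie far above the line in both GFP+ groups, whereas in RasV12 CD11b+ libraries most points lie on or below it, with Olig1, Gpr17 and Pdgfra above it in 1 library each.

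Between the sorted populations of control cerebellum, 5 of the 8 genes were lower in phagocytes, where 6.91% of all genes were called lower and 19.3% higher. Olig1 had a log2 fold change of -7.41 ± 1.10 (limma, adjusted p = 0.000605), and Olig2 had -7.69 ± 1.32 (adjusted p = 0.00147). C1ql1 had -6.82 ± 1.25 (adjusted p = 0.00229) and, with no read in phagocytes, was at least 158.1-fold lower. Sox10 had -6.38 ± 1.30 (adjusted p = 0.00421) and Nkx2-2 -5.84 ± 1.14 (adjusted p = 0.0033). These 5 were also the ones wholly lower, against 12.7% of all genes, and none was wholly higher, against 32.9%. Leaving out single libraries lost none of these calls; without control CD11b+ library 1 the value was -5.93 for Olig1 and -5.47 for Sox10, and without library 2 it was -6.65 for Olig2. Without control CD11b+ library 3 it was -8.00 for Olig1 and -9.09 for Olig2, without library 2 -8.29 for Olig1, and without control GFP+ library 1 -7.02 for Olig2. Pdgfra (-2.21, adjusted p = 0.0843), Gpr17 (-2.78, adjusted p = 0.121) and Cspg4 (-0.62, adjusted p = 0.727) overlapped and did not pass; under DESeq2 Pdgfra (adjusted p = 0.00988) and Gpr17 (0.0447) did, as they did with array weights, and Pdgfra passed without control GFP+ library 3 (0.0427).

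In the tumors 4 of the 8 genes were lower in phagocytes than in GFP+ cells and 1 was higher, beside 10.2% and 29.8% of all genes. Olig2 had a fitted log2 fold change of -9.08 ± 1.32 (limma, adjusted p = 0.000621) and, with 5340 reads against none, was at least 545.5-fold lower. C1ql1 had -6.36 ± 1.25 (adjusted p = 0.00281), and Nkx2-2 -4.99 ± 1.14 (adjusted p = 0.00554), or at least 25.1-fold lower. Olig1 had -3.31 ± 1.10 (adjusted p = 0.0299) and lost its call without RasV12 GFP+ library 1 (adjusted p = 0.0716) or 3 (0.112) and without RasV12 CD11b+ library 1 (0.0730) or 2 (0.0958). Gpr17 was the gene called higher, by 7.54 ± 1.29 (adjusted p = 0.00148), with 306 reads in phagocytes against 1 in GFP+ cells, a ratio of 998.5 (95% interval 177.9 to 39567). In those phagocyte libraries Gpr17 was at 0.162 to 2.09 times background, and with background subtracted the log2 change was 3.0 and did not pass (adjusted p = 0.350). Pdgfra (2.04, adjusted p = 0.0847) and Cspg4 (2.69, adjusted p = 0.111) were wholly higher without passing, though Pdgfra passed under DESeq2 (adjusted p = 0.0252), and Sox10 (1.30, adjusted p = 0.434) overlapped. Counted by separation, 3 were wholly higher and 4 wholly lower, against 36.0% and 14.8% of all genes.

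Among the values that single libraries moved most in this comparison, Gpr17 was at 6.45 without RasV12 CD11b+ library 2 and 8.59 without library 3. Olig1 was at -2.69 and -4.17 without the same libraries. C1ql1 was at -7.77 without RasV12 CD11b+ library 1 and at -5.65 without library 2 or 3. Olig2 was at -9.80 and -8.45 without RasV12 GFP+ library 2 and 3, and Nkx2-2 at -4.28 without RasV12 GFP+ library 2. The median of the 8 was -1.01, or -0.63 with genes lacking reads in a group at their bound, beside 1.79 for all genes.

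The interaction term, the RasV12 effect in phagocytes minus that in GFP+ cells, passed for 2 of the 8 genes, both positive, as for 2.06% of all genes, while 2.34% were called negative. In phagocytes neither gene stood clearly above background: the sum over libraries was 0.918 times background in control and 1.04 times in RasV12 for Gpr17, and 0.317 and 0.0198 times for Sox10. Per kb, 41.6%, 15.7% and 49.7% of the receptor genes stood higher than Gpr17 in RasV12 CD11b+ libraries 1 to 3, and 68.9%, 63.1% and 55.2% higher than Sox10. The terms below therefore set the GFP+ changes against levels near or under the mean background. They cannot by themselves be read as a RasV12 effect in phagocytes, since the part of background in those values was not tested. For Gpr17 the effect in CD11b+ cells minus that in GFP+ cells was 10.32 ± 1.83 on the log2 scale (limma interaction, adjusted p = 0.00781), from an effect of 1.95 in phagocytes and -8.38 in GFP+ cells. The call was lost with background subtracted (9.48, adjusted p = 0.120) and without both shallow RasV12 CD11b+ libraries (8.22, adjusted p = 0.0504). Leaving out single libraries lost no call; the value was 9.23 without RasV12 CD11b+ library 2, 9.64 without control GFP+ library 3, 11.08 without control CD11b+ library 2, 11.34 without control GFP+ library 1 and 11.37 without RasV12 CD11b+ library 3. For Sox10 it was 7.67 ± 1.84 (adjusted p = 0.0325), from -2.28 and -9.95. That call was lost without any 1 of the 6 GFP+ libraries and without control CD11b+ library 1 or 3, with adjusted p from 0.0612 to 0.0857, and the value was 6.77 without control CD11b+ library 1, 6.38 without RasV12 CD11b+ library 3 and 8.32 without RasV12 CD11b+ library 1 or 2. Pdgfra (4.25 ± 1.28, adjusted p = 0.0781, but 0.00165 under DESeq2), Olig1 (4.10 ± 1.56, adjusted p = 0.166), Cspg4 (3.31, adjusted p = 0.353), Olig2 (-1.39, adjusted p = 0.753), Nkx2-2 (0.84, adjusted p = 0.839) and C1ql1 (0.46, adjusted p = 0.929) did not pass.

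The genes most like each member over the 12 libraries, by Pearson's r of the log2 levels, are given as a description, since the libraries share group, depth and background. Sox10 was most like Endog (r = 0.965), Gamt (0.964), which makes creatine, and Gjb1 (0.958), a gap junction gene of oligodendrocytes. Gpr17 was most like Etnppl (0.948), Sox17 (0.945), a factor of endothelial cells, and the transporter gene Slco1a4 (0.935). Olig2 and Nkx2-2 shared Hid1 as their closest gene (0.984 and 0.974), and Olig1 was closest to Srgap3 (0.969). C1ql1 was closest to Ptprn (0.965), Pdgfra to Inpp1 (0.907), with the ribosomal RNA-like gene Rn18s-rs5 next (0.879), and Cspg4 to Gpr137c (0.914).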

How the data were processed

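RNA from 12 libraries was read as deposited. Per the labels' protocols it was isolated with Sepazol, copied with a SMARTer Universal Low Input kit and made into Nextera XT libraries. The submitters' processing notes name build GRCm38.p6, DESeq2 1.20.0, Subread 1.6.2 with featureCounts, HISAT2 2.1.0 and bcl2fastq 2.17.1.14, without the role of each. As deposited by the authors, the tables hold normalized counts, a signal scaled by library, and FPKM values that carry the same scaling. Whole reads were recovered from the step between low values (100% of values whole, tolerance 0.06); RasV12 GFP+ libraries 1 and 3 needed a finer search, as their step is under 0.5.

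Genes with at least 10 normalized counts in at least 3 libraries were tested with limma-trend (limma 3.58.1, R 4.3.3), 1 mean per group, pseudocount 1, threshold 0.05, in 5 comparisons. edgeR 4.0.16, DESeq2 1.42.0, the FPKM table, other scalings, pseudocounts and filters, background subtraction and left-out libraries were alternatives. The script was tested on simulated data. GENCODE M21 matched 98.3% of gene IDs and gave positions and exon lengths. Background was the summed normalized count of the 1494 receptor genes over their summed exon length in kb, times the exon length of the gene. Floors are 3 reads over a group and intervals 95%. The text names all 8 genes, and of each list the members with the smallest adjusted p in the GFP+ comparison. Trf, Sox8, Sox9, Itgam, Egr2, Rgs5 and the genes that overlap a member were named after their values were seen. Some genes that the rule names are not reported here. The 8 genes and all lists were chosen with earlier results of these data known. Replicate numbers were not used to pair samples in the main fit. Over 18 same-numbered pairs, deviations correlated at -0.03 to 0.09, which cannot show whether such libraries shared an animal or a sort.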

Additional observations from a re-analysis of the deposited data

Results flagged for a closer look

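The RasV12 effect on Gpr17 was 10.32 higher on the log2 scale in CD11b+ cells than in GFP+ cells, and that on Sox10 was 7.67 higher, by limma's interaction term (adjusted p = 0.00781 and 0.0325). In GFP+ libraries Gpr17 lay between 93.8 and 993.9 normalized counts in controls and at most at 0.6 in tumors; in CD11b+ libraries it lay between 29.8 and 160.2 and between 49.8 and 980.3. Sox10 lay between 868.8 and 1139.6 and at 0 in GFP+ libraries, and between 2.4 and 25.4 and between 0 and 13.8 in CD11b+ libraries. With library background subtracted, the Gpr17 difference was 9.48 and did not pass (adjusted p = 0.120). Neither gene stood clearly above the mean background in phagocytes (0.918 and 1.04 times background for Gpr17 and 0.317 and 0.0198 times for Sox10, control and RasV12, summed over libraries). These values cannot by themselves be read as a RasV12 effect there, since the part of background in them was not tested.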

How the results depend on the processing

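Each of the 8 genes was refitted under 27 alternatives at most. Sox10 passed as lower in RasV12 GFP+ cells in all 27 (adjusted p from 8.15e-14 to 0.00503) and Gpr17 in 26. The number of the 8 genes called in GFP+ cells went from 2 to 1 with background subtracted, when Gpr17 was lost at a log2 change of -8.57. In CD11b+ cells it went from 1 to 0 with upper-quartile rescaling, with only the 6 libraries compared, with edgeR, with background subtracted and without both shallow RasV12 CD11b+ libraries, and from 0 to 1 over single libraries left out. Between phagocytes and GFP+ cells of the tumors it went from 5 to 2 without both shallow libraries. For the difference of effects it went from 2 to 1 with no filter, with background subtracted and without both shallow libraries, and from 1 to 2 over single libraries left out. Counts rose too, to 3 for the difference with pseudocount 10, array weights and DESeq2 (Pdgfra, adjusted p = 0.0461, 0.0427 and 0.00165), to 7 between control populations with array weights (Pdgfra 0.0309, Gpr17 0.0198) and DESeq2 (0.00988 and 0.0447), to 6 there without control GFP+ 3, and to 6 or 7 between tumor populations with pseudocount 10, the 6 libraries compared, edgeR and DESeq2; array weights gave 4 there. Under edgeR and DESeq2 Sox10 passed as higher in tumor phagocytes than in tumor GFP+ cells (adjusted p = 0.0419 and 0.00212), from 23 reads against none.

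Signs turned for fold changes that had not passed. In GFP+ cells Pdgfra was at 0.19 without control GFP+ 2 and 0.08 without RasV12 GFP+ 2 (single libraries left out gave -1.02 at the lowest), Cspg4 at 0.41 without control GFP+ 1 and 0.35 without RasV12 GFP+ 2 (lowest -1.27), and Olig2 at 0.025 without RasV12 GFP+ 2 (lowest -1.33). In CD11b+ cells, background subtraction gave Cspg4 -1.90 and Olig1 -0.56, and leaving out both shallow libraries gave Gpr17 -0.15 and Sox10 0.31. Against GFP+ cells, background subtraction gave Pdgfra -4.24 and Cspg4 -3.94 in tumors; in controls Cspg4 was at 0.11 without control GFP+ 1 and 0.71 without control CD11b+ 1 (lowest -1.56). For the difference of effects, Cspg4 was at -1.23 with background subtracted, Olig2 at 0.0067 without control CD11b+ 3 (lowest -2.43), Nkx2-2 at -2.15 with edgeR, and C1ql1 at -0.088 with quantile normalization, -0.41 with pseudocount 10 and -0.95 with background subtracted, without RasV12 CD11b+ 1 or without both shallow libraries (highest 1.16). The cause of these turns was not tested.

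Over all genes, calls ranged from 1005 to 4907 around 2027 in the GFP+ comparison, from 0 to 5390 around 1599 in the CD11b+ one, from 3660 to 11466 around 7826 between populations in controls, from 3671 to 13294 around 11953 in tumors and from 575 to 3129 around 1312 for the difference; edgeR on recovered reads called 1122 in GFP+ cells. With quantile normalization the GFP+ calls were 514 higher and 529 lower instead of 1235 and 792, and the median of all genes was -0.12 instead of 0.56; in CD11b+ cells upper-quartile rescaling gave 559 and 1319 instead of 886 and 713. The fit with the replicate block called 2, 1, 5, 5 and 2 of the 8 genes in the 5 comparisons, as without it, and 1855 genes instead of 2027 in GFP+ cells; each library correlated best with its own number in 15 of 36 cases. Depth limits the RasV12 CD11b+ libraries most, where 1 read is worth up to 5.54 normalized counts.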

Other observations

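In RasV12 CD11b+ libraries 3 early differentiation genes that fell in tumor GFP+ cells rose against control phagocytes: Enpp6 from 119.9, 338.3 and 131.5 normalized counts to 1626.5, 2148.8 and 1511.6, Myrf from 110.5, 77.8 and 44.7 to 704.1, 736.6 and 565.7, and St18 from 203.8, 598.7 and 149.3 to 2036.5, 1955 and 1524.2. Their groups did not overlap. These 3 were the genes called among 21 lineage and early differentiation genes in that comparison, beside 2.97% of all genes higher and 2.39% lower. Of the 22 other precursor genes, 4 were called higher there and none lower. Of the 17 mature myelin genes, 1 was called there, lower. Background was 59.3 to 90.2 normalized counts per kb in the RasV12 CD11b+ libraries and 4.65 to 37.8 in the controls. The part of background in all these calls was not tested.

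Gm15966, a long noncoding RNA gene that overlaps Olig1 on the other strand, stood at 218.4, 282.4 and 18 in RasV12 CD11b+ libraries. It stood at 6.3, 34.4 and 8.2 in control CD11b+ libraries and at most at 0.6 in GFP+ libraries. The libraries where it was highest were thus not those where Olig1 was highest. Its highest values came from the shallow RasV12 CD11b+ libraries 1 and 2, and the part of background in them was not tested.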
